A study of Mus musculus with 6 samples.

Results

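The 4930 genes are mouse genes whose symbols on the array begin with 4930 and end with Rik, the names given to cDNA clones of the RIKEN collection that were sequenced from testis libraries. All such genes with 4 or more probe sets were taken, where a probe set is a group of probes on the array that measures roughly 1 exon, and only probe sets that name exactly 1 gene were used. This gave 242 members of 410 genes with a 4930 name, out of 23152 genes measured. No expression value entered the rule that chose them, although earlier results of these data were known. Of the 242, the gene table used (RefSeq, GRCm38.p6) annotates 91 as protein coding, 149 as long non-coding RNA, 1 as a transcribed pseudogene and 1 as another RNA. It now lists 57 of them under another symbol, given here in brackets, and 185 still carry the clone name.

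RNA came from testicular germ cells of 23 dpp (days post partum) FVB males and was hybridized to 3 arrays per genotype. Mgat1 cKO males were Mgat1[F/F]:Stra8-iCre and control males Mgat1[F/F], so that both carry floxed Mgat1 alleles and Mgat1 cKO males alone have iCre, which the Stra8 promoter drives in spermatogonia and their descendants. Cells were freed from the testes by digestion with collagenase and then trypsin. The 3 arrays of a genotype held aliquots of 1 RNA pool of 6 mice, so each SD, SE and p-value below covers the spread between aliquots and not between mice. Genotype and pool cannot be told apart.

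Sperm develop from spermatogonia through meiotic spermatocytes to haploid round spermatids, which then build the acrosome, the flagellum and the condensed nucleus. Many genes are transcribed only in the testis and only at 1 of these stages, and cDNA libraries made from adult testis are rich in transcripts of spermatids. The testis also transcribes an unusually large number of long non-coding RNAs, the roles of most of which are not known. Mgat1 encodes the GlcNAc-transferase that begins the synthesis of complex and hybrid N-glycans.

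The 5 members with the largest differences among those given a promoter window are introduced by that window, because the letters before a start site are a feature the choice of genes did not use. They are joined by 4930545L23Rik, picked after the search because it holds RFX letters, and by 4930444F02Rik, a highly expressed member that did not pass the test. The windows are from RefSeq (GRCm38.p6), run 5′ to 3′ on the strand of the gene, and reach from 250 bases before the start to 50 after it. Capitals mark the letters searched on both strands: TAACGG or CAACGG or TAACTG or CAACTG (bound by MYB factors, among them A-MYB of spermatocytes), GTTGCCA (part of the site of RFX factors, which act on genes of cilia and flagella) and TGACGTCA (the CRE, bound by CREM in spermatids). 4930596D02Rik lies on the minus strand at chr14:35811929-35812228, 4930584F24Rik on the minus strand at chr5:26493265-26493564 and 4930479M11Rik (Pmis2) on the minus strand at chr7:30671556-30671855. 4930458L03Rik (Spata31) lies on the plus strand at chr13:64917156-64917455 and 4930523O13Rik on the minus strand at chr15:46496130-46496429. 4930545L23Rik lies on the minus strand at chr2:135215567-135215866 and 4930444F02Rik, the member that did not pass, on the minus strand at chr10:18831881-18832180.
4930596D02Rik: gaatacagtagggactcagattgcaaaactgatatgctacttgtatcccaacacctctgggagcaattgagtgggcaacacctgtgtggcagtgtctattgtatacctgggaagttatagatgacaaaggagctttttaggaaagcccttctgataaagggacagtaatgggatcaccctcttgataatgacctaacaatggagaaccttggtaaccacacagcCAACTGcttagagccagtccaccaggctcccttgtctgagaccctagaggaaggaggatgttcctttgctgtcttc
4930584F24Rik: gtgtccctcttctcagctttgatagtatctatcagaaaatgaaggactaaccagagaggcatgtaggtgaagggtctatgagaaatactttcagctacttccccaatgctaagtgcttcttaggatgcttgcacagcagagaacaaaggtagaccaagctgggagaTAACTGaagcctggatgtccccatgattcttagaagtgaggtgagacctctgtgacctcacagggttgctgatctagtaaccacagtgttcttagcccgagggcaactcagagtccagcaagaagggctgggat
Pmis2: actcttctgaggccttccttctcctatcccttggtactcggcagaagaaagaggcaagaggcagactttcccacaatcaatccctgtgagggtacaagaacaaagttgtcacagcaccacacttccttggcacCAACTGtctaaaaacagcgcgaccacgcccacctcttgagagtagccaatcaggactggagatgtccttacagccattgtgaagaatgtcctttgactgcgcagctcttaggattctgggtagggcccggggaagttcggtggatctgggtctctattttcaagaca
Spata31: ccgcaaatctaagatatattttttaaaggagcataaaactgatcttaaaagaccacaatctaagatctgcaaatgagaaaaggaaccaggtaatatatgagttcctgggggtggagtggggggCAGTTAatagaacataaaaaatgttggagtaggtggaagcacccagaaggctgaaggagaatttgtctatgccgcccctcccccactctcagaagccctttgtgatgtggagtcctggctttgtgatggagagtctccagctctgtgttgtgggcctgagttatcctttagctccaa
4930523O13Rik: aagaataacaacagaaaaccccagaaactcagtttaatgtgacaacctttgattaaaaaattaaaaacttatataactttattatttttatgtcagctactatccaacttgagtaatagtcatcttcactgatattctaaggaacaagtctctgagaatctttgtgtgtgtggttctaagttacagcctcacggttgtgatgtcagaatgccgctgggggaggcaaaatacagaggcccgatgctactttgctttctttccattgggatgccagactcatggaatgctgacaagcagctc
4930545L23Rik: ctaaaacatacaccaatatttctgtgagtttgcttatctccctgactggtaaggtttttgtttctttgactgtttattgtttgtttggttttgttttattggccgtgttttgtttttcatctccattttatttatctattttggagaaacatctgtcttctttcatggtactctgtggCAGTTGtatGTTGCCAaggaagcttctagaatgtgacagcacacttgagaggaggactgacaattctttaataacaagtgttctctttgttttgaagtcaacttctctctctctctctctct
4930444F02Rik: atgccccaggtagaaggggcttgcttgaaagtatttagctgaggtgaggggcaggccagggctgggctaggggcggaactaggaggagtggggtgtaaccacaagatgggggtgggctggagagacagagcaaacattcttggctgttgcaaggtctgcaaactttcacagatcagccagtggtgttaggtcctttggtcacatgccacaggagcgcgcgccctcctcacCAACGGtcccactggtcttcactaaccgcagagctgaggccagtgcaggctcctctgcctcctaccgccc

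A window was given for 195 of the 242 members and for 30 of the 36 that were higher by over 2-fold in Mgat1 cKO germ cells. Of these 30 members, 2 had several windows, as did 4163 genes of the promoter table, and a gene counted where any window matched. MYB letters were present in 17 of the 30 (56.7%), in 52 of 124 members that did not pass the test (41.9%), in 86 of all 195 (44.1%) and in 8412 of 27025 genes in the promoter table (31.1%). Counted from the start, with negative positions before it, they begin at -26 in 4930596D02Rik, at -84 in 4930584F24Rik, at -117 in Pmis2 and, on the other strand, at -127 in Spata31. The window of 4930523O13Rik holds none of the letters searched. MYB letters are also present in 4930444F02Rik, which did not pass. The RFX letters were found in 3 of the 30, 4930545L23Rik among them, against 9.74% of all members with a window and 5.02% of all genes. The full CRE was in 0 of the 30, although 8 of the 195 members (4.10%) and 2.03% of all genes held it. A match describes letters and is no evidence of binding.

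At an adjusted p under 0.05, 83 of the 242 members (34.3%) had a higher level in Mgat1 cKO germ cells, against 6.07% of all genes tested, and 1 (0.413%) had a lower level, against 2.35%. With the added condition of over 2-fold, 36 members (14.9%) were higher, against 2.53% of all genes, and 0 were lower, against 0.0346%. The test was limma with Benjamini-Hochberg adjustment over all 23152 genes, and all adjusted p-values here are from it. The median difference (Mgat1 cKO minus control, on the log2 scale as are all values below) was 0.107 over the members and -0.053 over all genes. In 107 members the lowest Mgat1 cKO array exceeded the highest control array, which 11.2% of all genes did, and in 20 members the highest Mgat1 cKO array was under the lowest control array, which 20.1% of all genes did. The remaining 115 overlapped. Of all members, 158 passed the test in neither direction, and a p above the threshold does not show that they had equal levels.

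**Figure D1:**
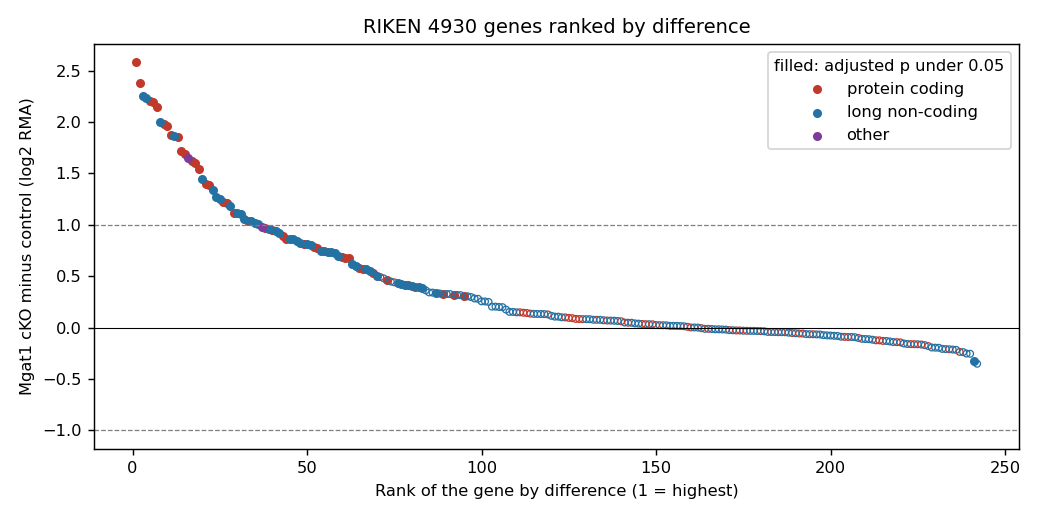
Each point is 1 of the 242 RIKEN 4930 genes, ranked on the x axis by its difference, with Mgat1 cKO minus control (log2 RMA) on the y axis; filled points have an adjusted p under 0.05 and dashed lines mark 2-fold. The differences reach 2.58 at the upper end and only -0.35 at the lower end, and the filled points on the left include both coding and non-coding genes.

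The same preparations were checked with marker genes. Round spermatid markers were higher in Mgat1 cKO germ cells for 10 of 10 genes (median difference 2.36), against 6.07% of all genes. The list averaged 8.37 to 8.47 on the Mgat1 cKO arrays and 6.19 to 6.28 on the control arrays. All 10 were read on the same arrays as the members. The study already reports Tnp1, Tnp2, Prm1, Prm2 and Spem1 as raised in Mgat1 cKO germ cells, so these are no independent check. It uses Acrv for late spermatids and Dbil5 for round spermatids. Dbil5 had the lowest difference of the list, 0.57 (adjusted p = 0.00087), while 9 of 10 were over 2-fold. No spermatogonial (0 of 6) or spermatocyte (0 of 8) marker passed the test, with medians of -0.14 in both lists. Among somatic markers, 4 of 6 for macrophages, 5 of 8 for epididymal epithelium and 2 of 5 measured for Leydig cells were lower. The same held for 1 of 5 for peritubular myoid cells and 1 of 8 for Sertoli cells, against 2.35% of all genes. Differences above 0, none of which passed, were those of 2 Leydig, 2 Sertoli and 1 epididymal marker, with Insl3 of Leydig cells the largest (0.80). The epididymal list averaged 5.22 to 5.38 on the Mgat1 cKO arrays and 5.92 to 6.05 on the control arrays. The macrophage list averaged 6.61 to 6.66 on the Mgat1 cKO arrays and 6.87 to 6.92 on the control arrays. The part of these markers in the differences of the 4930 genes was not tested, and in RNA of mixed cells a changed number of cells of 1 type and a changed amount of RNA per cell cannot be told apart. Mgat1 itself, over 12 probe sets, read 6.35, 6.10 and 6.45 on the Mgat1 cKO arrays. On the control arrays it read 6.17, 6.44 and 6.33 (adjusted p = 0.94), so its mean does not check the genotype. The deletion rests on other measurements of the study. By quantitative RT-PCR, it reports much lower Mgat1 expression in Mgat1 cKO germ cells of this age. Basigin, a germ cell glycoprotein, was sensitive to endoglycosidase H in Mgat1 cKO germ cells and resistant in control, from which the study concludes efficient deletion. The arrays had medians of 6.85 to 6.87.

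The member with the largest difference was 4930596D02Rik, a protein coding gene of unknown role. It read 7.44, 7.61 and 8.13 on the Mgat1 cKO arrays, against 5.06, 5.09 and 5.28 on the control arrays. The genotypes did not overlap, although the Mgat1 cKO aliquots were spread more widely than the control aliquots. The difference was 2.58 (SE 0.17, adjusted p = 2e-05), which is 5.98-fold.

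Several of the next members have known products of the sperm head and flagellum. 4930511I11Rik (Armc12), needed to form the mitochondrial sheath of the sperm midpiece, read 7.87, 7.80 and 7.79 in Mgat1 cKO germ cells, against 5.42, 5.39 and 5.51 in control. All Mgat1 cKO arrays lay far above all control arrays, and the difference was 2.38 (SE 0.06, adjusted p = 2.5e-07). 4930579C15Rik (Eqtn), which encodes equatorin of the acrosomal membrane, read 7.55, 7.43 and 7.57 in Mgat1 cKO germ cells and 5.21, 5.32 and 5.45 in control. It too did not overlap and rose by 2.19 (SE 0.08, adjusted p = 8.2e-07). 4930479M11Rik (Pmis2), whose product acts in the passage of sperm into the oviduct and whose entry in the gene table is non-coding, read 7.96, 8.09 and 7.97 in Mgat1 cKO germ cells, against 5.73, 5.75 and 5.83 in control. The gap between the genotypes was wide beside the spread within each, and the difference was 2.24 (SE 0.07, adjusted p = 3.9e-07).

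Members named for the testis or for spermatogenesis (Tex and Spata symbols) rose by over 2-fold in 5 of 6 cases, against 2.53% of all genes. The share among all Tex and Spata genes was not counted. 4930458L03Rik (Spata31) read 6.55, 6.42 and 6.53 in Mgat1 cKO germ cells, against 4.35, 4.19 and 4.36 in control, a difference of 2.20 (adjusted p = 5.4e-07). 4930415F15Rik (Spata48) read 8.15, 8.30 and 8.29 in Mgat1 cKO germ cells and 6.27, 6.49 and 6.35 in control, a difference of 1.88 (adjusted p = 1.8e-06). No array of 1 genotype reached the range of the other in either gene. Of the 4 Tex members, 3 rose by over 2-fold: 4930435E12Rik (Tex55), which binds a regulatory subunit of protein kinase A, by 1.98, 4930404H21Rik (Tex36) by 1.96 and 4930588N13Rik (Tex26) by 1.60. The fourth, 4930549C01Rik (Tex46), was near the lower end of the scale in both genotypes, at 4.15, 4.14 and 3.96 in Mgat1 cKO germ cells and 3.95, 3.94 and 4.17 in control, and overlapped (adjusted p = 0.71).

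**Figure D2:**
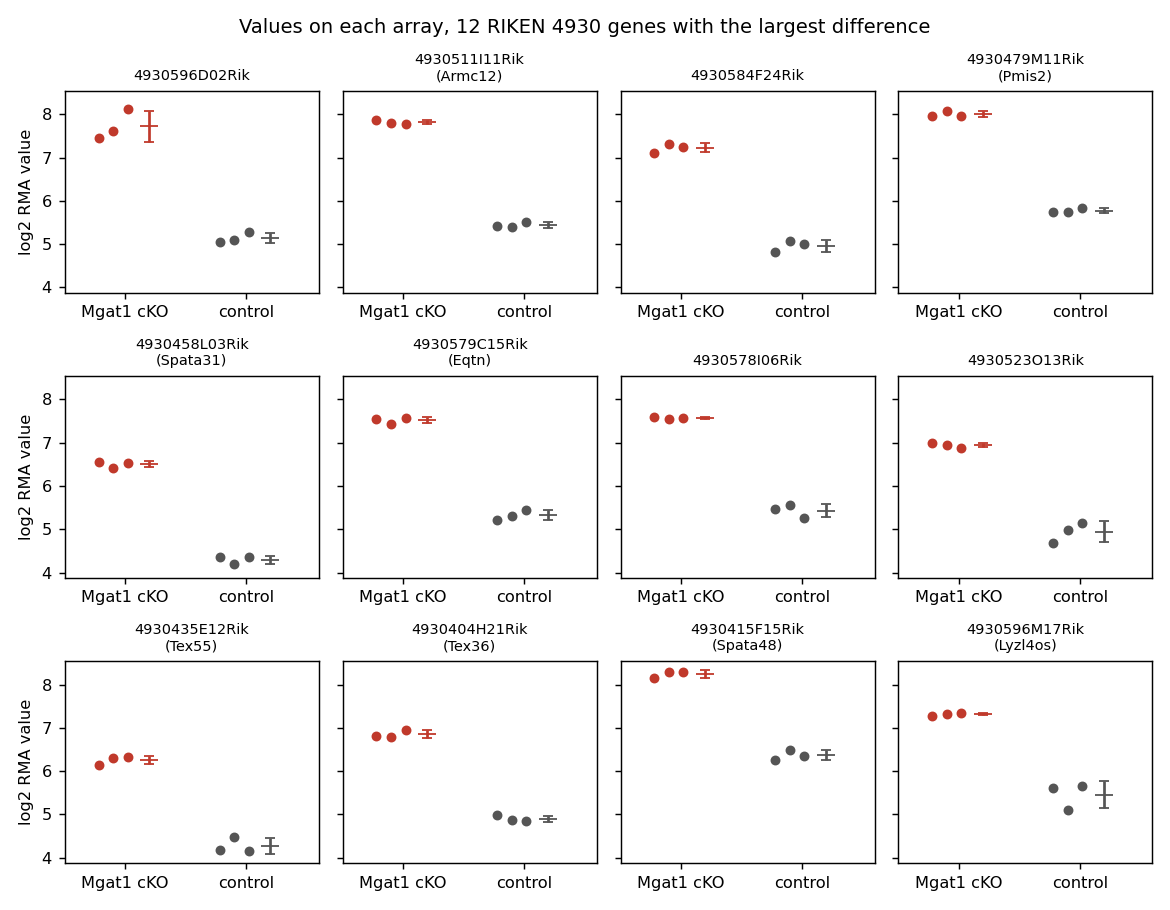
Each panel shows 1 of the 12 RIKEN 4930 genes with the largest difference, with log2 RMA values on the y axis, points for the 3 arrays of each genotype and bars for the mean with its SD (Mgat1 cKO on the left, control on the right). In every panel the lowest Mgat1 cKO array lies above the highest control array, and 4930596D02Rik has the widest spread among its Mgat1 cKO arrays (7.44 to 8.13).

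Protein coding members that still carry a clone name formed a further group, whose roles are not given in the sources used here. 4930578I06Rik read 7.59, 7.54 and 7.58 in Mgat1 cKO germ cells, against 5.47, 5.55 and 5.26 in control, without overlap, and differed by 2.14 (SE 0.08, adjusted p = 1.3e-06). 4930513O06Rik, 4930505A04Rik, 4930579F01Rik, 4930451I11Rik and 4930474N05Rik rose by 1.86, 1.72, 1.69, 1.54 and 1.39. Of these, 4930579F01Rik had the highest level, at 9.10, 8.98 and 8.96 in Mgat1 cKO germ cells and 7.49, 7.13 and 7.36 in control. The claudin family members 4930468A15Rik (Cldn34d) and 4930428D18Rik (Cldn34b4), of a protein family of tight junctions, rose by 1.63 and 1.11. Cldn34b4 read 5.22, 4.73 and 4.92 in Mgat1 cKO germ cells and 3.67, 4.19 and 3.68 in control, and fell under 2-fold (0.98) without Mgat1 cKO replicate 1.

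The long non-coding members were led by 4930584F24Rik. It read 7.11, 7.31 and 7.25 in Mgat1 cKO germ cells, against 4.81, 5.07 and 5.01 in control, and the genotypes did not overlap. The difference of 2.26 (SE 0.09, adjusted p = 1.4e-06) was the third largest of all members. 4930523O13Rik read 6.99, 6.96 and 6.88 in Mgat1 cKO germ cells and 4.69, 4.99 and 5.16 in control, a difference of 2.00 (adjusted p = 1e-05). 4930596M17Rik (Lyzl4os), whose start lies 59 bases from that of the lysozyme-like gene Lyzl4 on the opposite strand, read 7.28, 7.33 and 7.34 in Mgat1 cKO germ cells and 5.61, 5.09 and 5.66 in control, a difference of 1.86 (adjusted p = 5.9e-05). None of these 3 RNAs overlapped between genotypes. Smaller rises over 2-fold were those of 4930513D17Rik (1.44), 4930434J06Rik (1.34), 4930545L23Rik (1.28) and 4930543E12Rik (1.25). The transcribed pseudogene 4930453H23Rik rose by 1.65, and 4930430D24Rik (Btg1c), a coding gene, by 1.39. The other 11 members over 2-fold, Cldn34b4 among them, differed by 1.01 to 1.22.

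By class, 20 of 91 coding members and 15 of 149 long non-coding members (10.1%) were higher by over 2-fold. Over all genes with 4 or more probe sets these shares were 2.23% for coding genes and 3.86% for long non-coding RNAs. The medians were 0.136 for coding and 0.082 for long non-coding members, against -0.062 and -0.017 for all such genes. The difference between the classes of members was not tested. Members with another current symbol were higher by over 2-fold in 13 of 57 cases (22.8%), and members with the clone name in 23 of 185 (12.4%). The share of all genes was 2.53%. These 2 groups differ in class, since 47 of the 57 but only 44 of the 185 are coding. Among coding members the shares were close, at 11 of 47 (23.4%) with another symbol and 9 of 44 (20.5%) with the clone name. At an adjusted p under 0.05 alone the order turned, with 18 of the 47 and 22 of the 44 higher.

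The rises were unevenly spread over the range of mean levels, in which the Mgat1 cKO arrays are included. Among members with a mean over all 6 arrays of 5 to 7, 24 of 100 (24.0%) were higher by over 2-fold, against 4.54% of all genes in that range. Below 5 it was 8 of 76 (10.5%), against 0.977%, and at 7 or more it was 4 of 66 (6.06%), against 1.74%. A rise itself moves a gene towards a higher range. Spata31 and Tex55, with control means of 4.30 and 4.27, were counted at 5 to 7, as was Armc12, with a control mean of 5.44. The spread by control level alone was not tested. The deposited table used here gives no detection call, and 61 members had a mean under 5 in both genotypes, where a low value may be background.

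**Figure D3:**
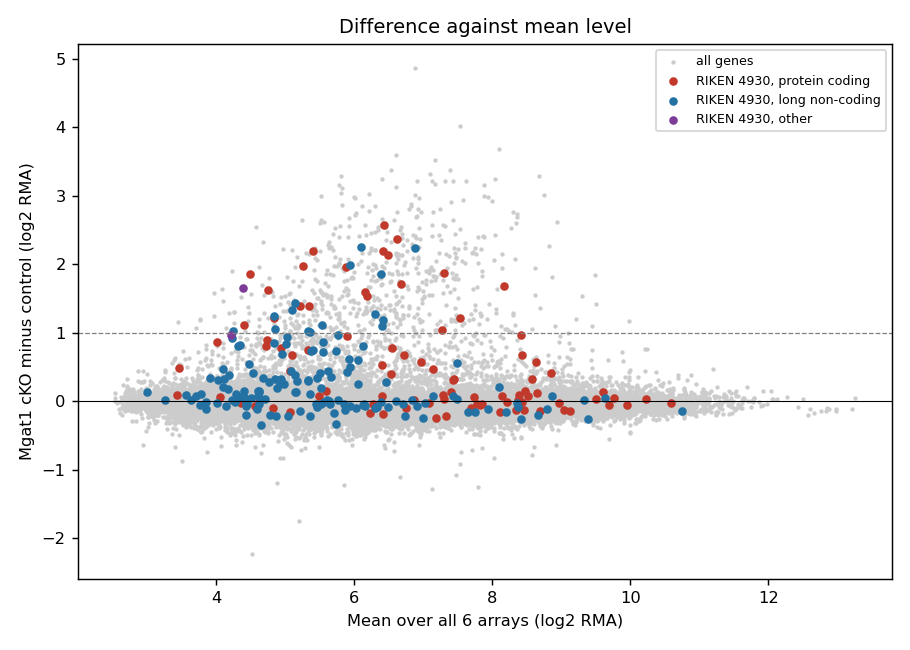
The x axis gives the mean of a gene over all 6 arrays and the y axis Mgat1 cKO minus control (both log2 RMA), with all 23152 genes in grey and the RIKEN 4930 genes in colour by class. Members over 2-fold lie mostly between 5 and 7 on the x axis (24 of 36), and those with the highest levels lie near 0.

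None of the 6 most highly expressed members passed the test. 4930444F02Rik, a long non-coding RNA, read 10.69, 10.70 and 10.64 in Mgat1 cKO germ cells, against 10.82, 10.80 and 10.81 in control, a difference of -0.13 (SE 0.06, adjusted p = 0.20) with no overlap between genotypes. 4930511M11Rik (Tmbim7) read 10.59, 10.59 and 10.56 in Mgat1 cKO germ cells and 10.60, 10.67 and 10.54 in control, and overlapped. 4930430A15Rik (A26c3), 4930525F21Rik (Fam227b), 4930534B04Rik (Cep128, a protein of the centriole appendages) and 4930579G24Rik averaged 9.70 to 10.23 over all arrays and differed by 0.03, -0.06, 0.05 and -0.05. In each of these 4 the difference was smaller than 0.1 and did not pass.

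Members that act in meiosis also did not pass. 4930404A10Rik (Meikin), which protects cohesion at kinetochores in meiosis I, read 7.20, 6.88 and 7.15 in Mgat1 cKO germ cells and 7.31, 7.29 and 7.33 in control (difference -0.24, SE 0.09, adjusted p = 0.17). 4930528F23Rik (Meiob), a single-stranded DNA binding protein of meiotic recombination, read 8.56, 8.11 and 8.50 in Mgat1 cKO germ cells and 8.43, 8.60 and 8.52 in control (difference -0.12, adjusted p = 0.57). 4930447C04Rik, known as SIX6OS1 of the synaptonemal complex, read 8.37, 8.23 and 8.25 in Mgat1 cKO germ cells and 8.39, 8.58 and 8.27 in control (difference -0.13, adjusted p = 0.42). Meikin did not overlap between genotypes, while Meiob and 4930447C04Rik did. 4930502E18Rik (Ct55), a cancer/testis antigen, differed by -0.21 (adjusted p = 0.19).

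Members grouped by Cfap and Ccdc symbols, some of them of the axoneme, showed small differences as means over their probe sets. The 3 Cfap members, 4930529M08Rik (Cfap61, of the radial spoke), 4930485B16Rik (Cfap54, of the central apparatus) and 4930452B06Rik (Cfap20dc), differed by 0.13, 0.03 and -0.09, and 0 of 3 passed. The mean of Cfap20dc hides a range of -1.63 to 1.21 over its 17 probe sets, of which 1 was higher by over 2-fold and 0 were called lower. Cfap54 read 9.52, 9.46 and 9.56 in Mgat1 cKO germ cells and 9.41, 9.54 and 9.50 in control, which overlap. Of the 4 Ccdc members, 4930403N07Rik (Ccdc175) rose by 0.41 (adjusted p = 0.005) and 4930578N16Rik (Ccdc173) by 0.31 (adjusted p = 0.03), and 4930455F23Rik (Ccdc181, of flagellar microtubules) and 4930473A06Rik (Ccdc171) differed by 0.14 and 0.09 without passing. The call of Ccdc173 was lost whichever array was left out (adjusted p up to 0.10). 4930555I21Rik (Stpg1), with sperm-tail PG-rich repeats, averaged 8.90 ± 0.02 in Mgat1 cKO germ cells and 7.94 ± 0.07 in control (SD, n = 3 each). It did not overlap and rose by 0.966, just under 2-fold. Among called differences under 2-fold only that of 4930432E11Rik was larger (0.975).

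The other members with the largest differences under 2-fold were 4930568K20Rik (Pitpnm2os1), 4930564B18Rik (Erich6b), 4930440C22Rik and 4930413E15Rik, at 0.96, 0.95, 0.94 and 0.92. Antisense genes named with os formed a group of 7, of which 3 were higher and only 1 by over 2-fold. The share higher was 27.5% of all long non-coding members and 6.07% of all genes, and 3 of 7 is a count only. Those higher were Lyzl4os by 1.86, Pitpnm2os1 by 0.96 and 4930441O14Rik (Zfp85os) by 0.50. Zfp85os was no longer called in 4 of the 6 fits with 1 array fewer (adjusted p up to 0.078). 4930405P13Rik (Scpep1os), 4930529F24Rik (Nrg3os), 4930471I20Rik (Acss2os) and 4930564K09Rik (Rbm46os) differed by 0.33, 0.32, 0.26 and -0.04 and did not pass.

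A single member was lower. 4930524O08Rik, a long non-coding RNA, read 5.59, 5.62 and 5.51 in Mgat1 cKO germ cells, against 5.86, 5.98 and 5.86 in control. The arrays did not overlap and the difference was -0.32 (SE 0.07, adjusted p = 0.021), but after leaving out 1 array at a time the call held only without Mgat1 cKO replicate 2 (adjusted p up to 0.083 otherwise). 4930556C24Rik, named after its value was seen, had the lowest difference of all members, -0.35, and did not pass.

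Probe sets of 1 member often moved unequally. Of the 1692 probe sets of the members (4 to 33 per gene, median 5), 193 passed the test as higher, against 1.87% of all 269751 probe sets, and 0 as lower, against 0.18%. With over 2-fold added, 169 were higher, against 1.63%, and 0 lower, against 0.106%. All 5 probe sets of Tex55 passed the test with over 2-fold, and it was the only one of the 36 members in which all did. In 4930578I06Rik, 4930523O13Rik and Lyzl4os every probe set also differed by more than 1, but not every one had an adjusted p under 0.05. Of the 36, 24 had 50% or more of their probe sets past both thresholds. Stpg1 had 9 of 15 past both, with values of -0.18 to 1.57. 4930505A04Rik had 4 of 6 past both and its lowest at -0.57. A mean over probe sets is therefore smaller than the largest change within a gene.

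Of the members not called over 2-fold, 29 held a probe set that was. The share among other genes was not counted, so the 29 cannot be read as a trait of the members. In 4930412O13Rik, 1 of 9 probe sets averaged 6.21 ± 0.18 in Mgat1 cKO germ cells, against 4.20 ± 0.09 in control (SD, n = 3 each), while the gene differed by 0.34 and did not pass (adjusted p = 0.07). In 4930428E07Rik, 1 of 9 reached 2.61 and the mean over the gene was 0.82. 4930432E11Rik, 4930440C22Rik, 4930548G14Rik and 4930568D16Rik each had 1 such probe set, at 2.03, 2.08, 2.13 and 2.26, with gene means of 0.97, 0.94, 0.81 and 0.86.

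**Figure D4:**
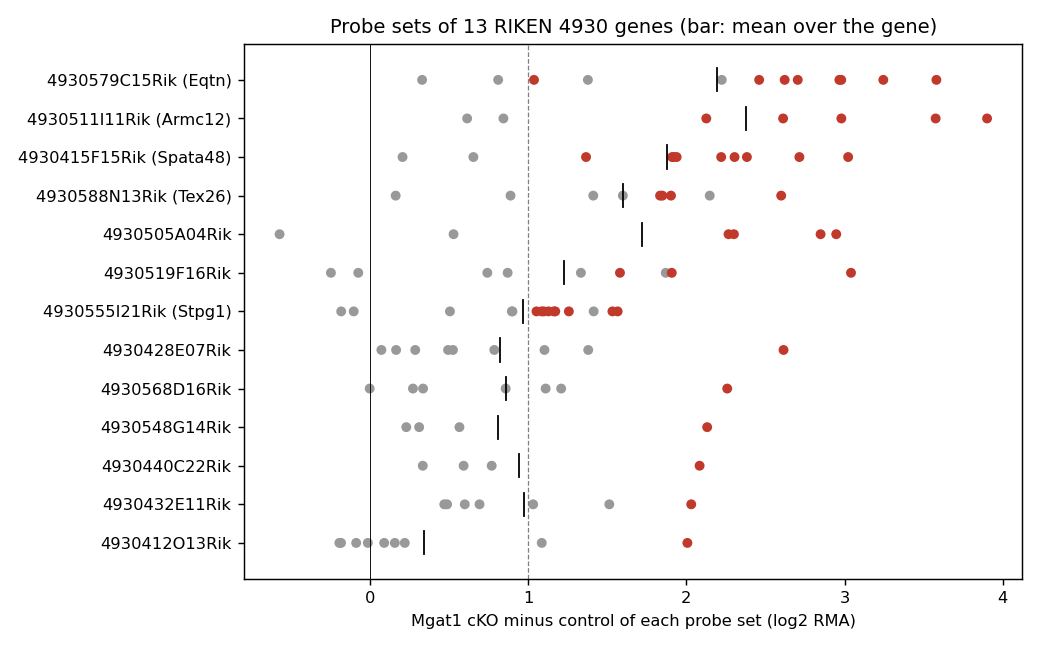
Each row is 1 of 13 RIKEN 4930 genes and each point 1 probe set, placed on the x axis by Mgat1 cKO minus control (log2 RMA), red where it passed both thresholds, with a bar at the mean over the gene. In Armc12, Eqtn and Spata48 many probe sets lie beyond 1, whereas in 4930412O13Rik and 4930428E07Rik 1 probe set stands far to the right of the rest.

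Members were set beside their neighbours in the gene table, since transcripts of adjoining genes can share a region. The nearest measured gene on each side was looked up for 240 members. Of the 72 neighbours of the 36 members over 2-fold, 8 (11.1%) were also higher by over 2-fold, against 2.53% of all genes. The same held for 10 of 312 neighbours of members that did not pass (3.21%), and for 4.18% of the neighbours of all members, and the difference was not tested. The pair 4930596D02Rik and 4930474N05Rik on chromosome 14 rose by 2.58 and 1.39, and the pair Cldn34d and Cldn34b4 on chromosome X by 1.63 and 1.11. Within both pairs each member is the neighbour of the other, so all of these genes count among the 8. A member that did not pass cannot add such a pair, so the 11.1% and the 3.21% are not like for like. Spata31 adjoins 4932441B19Rik, which averaged 6.24 in Mgat1 cKO germ cells and 4.73 in control (adjusted p = 0.00025). Copies within a family such as Spata31 or Cldn34 may share probes, which was not tested. The members named after their values were seen, 4930528D03Rik, 4930405D11Rik and 4930533B01Rik, adjoin 4932411G14Rik (2.09), Kif2b (1.95) and Tmco5b (1.01). A run of 3 members on chromosome 18, 4930527G23Rik, 4930474G06Rik and 4930578E11Rik, differed by 0.42, 0.25 and -0.25, of which the first passed (adjusted p = 0.038) and turned to -0.26 when dim probe sets were left out.

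Genes that overlap a rising member did not always rise with it. Spata48 overlaps Zpbp, a gene of an acrosomal protein, which differed by 0.16 (SE 0.06, adjusted p = 0.17). 4930545L23Rik, whose promoter is printed above, overlaps Plcb1, which read -0.11 (adjusted p = 0.46), while 4930533B01Rik overlaps Fmn1 (-0.09). Stpg1 overlaps Nipal3, at -0.01, and Pitpnm2os1 overlaps Pitpnm2, at 0.10. Lyzl4, which shares its start region with Lyzl4os, averaged 5.85 ± 0.08 in Mgat1 cKO germ cells and 4.93 ± 0.22 in control (SD, n = 3 each), a rise of 0.93 (adjusted p = 0.001) beside the 1.86 of the antisense RNA. At 2 of 28 start regions shared head to head within 1000 bases the partner was higher by over 2-fold, against 2.53% of all genes. These were 1700027D21Rik (1.71), whose member 4930483K19Rik rose by 0.86, and 4921539E11Rik (1.55), whose member 4930456L15Rik differed by 0.30 without passing. Of the 2 members over 2-fold with such a start region, 0 had a partner over 2-fold.

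By chromosome, a split made after the values were seen, 6 of 16 members on the X (37.5%) were higher by over 2-fold, against 6.32% of all 949 genes there. They were 4930513O06Rik, 4930453H23Rik, Cldn34d, Btg1c, 4930519F16Rik and Cldn34b4. On chromosome 14 it was 6 of 27 (22.2%), against 3.42% of 849 genes, and on chromosome 7 it was 4 of 7, against 1.91% of 2042 genes: Pmis2, Tex36, 4930451I11Rik and 4930543E12Rik. These 3 chromosomes were named because their shares or counts were high. On 10 other chromosomes 1 to 4 members each were over 2-fold, and on 7 chromosomes with 49 members none was. With so few members per chromosome these are counts only.

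Other RIKEN names were counted in the same way, without a test. Of 239 genes with a 1700 name and 4 or more probe sets, 64 (26.8%) were higher by over 2-fold with a median difference of 0.273, and of 137 named like 4932441B19Rik, from the 3 libraries numbered next to these, it was 21 (15.3%, median 0.086). Of 990 genes with other RIKEN names it was 22 (2.22%), with a median of -0.048. The share among the members (14.9%) lay between those of the 1700 names and of the other RIKEN names. At the limit on probe sets, 11 of the 88 members with exactly 4 (12.5%) and 22 of the 102 genes with 3 (21.6%) were higher by over 2-fold.

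**Figure D5:**
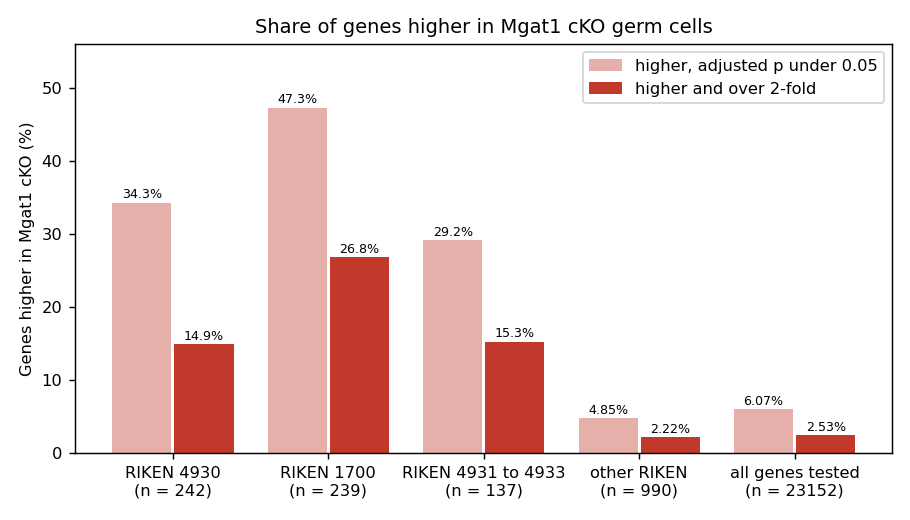
The bars give the share of genes (%) that were higher in Mgat1 cKO germ cells, pale at an adjusted p under 0.05 and dark with over 2-fold added, for RIKEN 4930 members and other RIKEN names with 4 or more probe sets and for all genes tested. The share over 2-fold was 14.9% for the 4930 names, 26.8% for the 1700 names and 2.53% for all genes.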

How the data were processed

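RNA of 23 dpp germ cells was measured on 6 Mouse Gene 2.0 ST arrays, 3 per genotype. The deposited log2 values had been corrected for background, quantile normalized and summarized by the authors through RMA in Affymetrix Expression Console (version not given in the sources used here). No depth applies to arrays, whose number limits the precision. Values were used as deposited. Probe sets with exactly 1 symbol were averaged per gene, for 23152 genes in all, and no filter on low values was applied, so all 242 members were tested. limma 3.58.1 (lmFit and eBayes without a trend) in R 4.3.3 was used with Benjamini-Hochberg adjustment over all genes, or over all probe sets, and was tested on simulated data. A gene was called at an adjusted p under 0.05, and over 2-fold where the difference of means also exceeded 1. limma stood in for the analysis of variance of the study's methods because few degrees of freedom remain with 3 arrays per genotype. Gene names and classes came from the RefSeq gene table (GRCm38.p6), whose coordinates served only to find neighbouring and overlapping genes and the distance between starts. No position from the arrays' table was used, since its build is not given in the sources used here. Tables and figures were made with Python 3.11.15, pandas 2.3.3 and matplotlib 3.10.9.

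The members and lists were chosen with earlier results of these data known. Genes were named by rule: the 25 largest differences over 2-fold, the 6 largest under 2-fold in each direction, the 6 highest levels not called, up to 6 with a single probe set over 2-fold, members of known role, and families or runs of 3 or more. Replicate numbers came from the labels, and same-numbered arrays did not deviate together (r of -0.023, -0.064 and -0.022 between deviations from the group means), so no pairing was used. Alternatives concerned the test (analysis of variance, intensity trend, replicate block), the thresholds (1.5-fold, minimum number of probe sets), the summary (difference of medians, medians over probe sets, probe sets of several symbols, no dim probe sets), the scaling (array centring, quantile normalization repeated) and the arrays (each left out). All 6 columns of values were used.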

Additional observations from a re-analysis of the deposited data

How the results depend on the processing

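The count of members higher by over 2-fold stayed between 33 and 46 under the other tests, the replicate block, differences of medians, both rescalings and the 3 other choices of probe sets, and 0 members were lower by over 2-fold in any of these. It was 64 at a 1.5-fold threshold, 58 with 3 or more probe sets and 9 with 8 or more, where 17 were higher at an adjusted p under 0.05, since the number of members differs there. With the replicate number as a block, which does not pair the arrays, 75 members were higher, 36 over 2-fold and 0 lower. The count lower was 4 with analysis of variance, 5 with an intensity trend, 2 without dim probe sets, 0 with medians over probe sets, 2 with probe sets of several symbols and 0 with 8 or more probe sets. With each array left out, 72 to 77 members were higher, 34 to 41 over 2-fold, 0 to 1 lower and the median difference was 0.105 to 0.137; 67 of the 83 higher calls and 29 of the 36 over 2-fold were kept in all 6 fits. Of the named genes' values under the alternatives, 891 kept direction and call, 44 lost a call, 7 gained one and 1 reversed, 4930527G23Rik, at -0.26 without dim probe sets; the cause was not tested. The median of all genes stayed between -0.067 and -0.044.

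No pool was repeated, so no alternative covers the spread between mice. Values near the lower end of the scale have no detection call, and a mean over exons understates a change confined to a few of them.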
